A study of Drosophila melanogaster with 4 samples.

Results

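Heterochromatin is the compacted, repeat-rich chromatin around the centromeres and over the Y chromosome of the fly. In the release 5 assembly of the Drosophila melanogaster genome, some of it is kept in scaffolds of its own. These were assembled and assigned to a chromosome, and are named after the arm or chromosome they belong to. H2Av clusters on 5 of these scaffolds are described here: 2LHet (369 kb), 3LHet (2555 kb), 3RHet (2518 kb), XHet (204 kb) and YHet (347 kb). A cluster is a region that the authors called as enriched in H2Av chromatin immunoprecipitation and sequencing (ChIP-seq), with a start, an end and 1 score. Members were all clusters of the deposited lists that lie on these 5 scaffolds. They numbered 293 of 6778 clusters in replicate 1, 158 of 6672 in replicate 2 and 281 of 7576 in the list that the authors combined from the replicates. The largely euchromatic arms 2L, 3L, 3R and X, with 4823 clusters in replicate 1 and 4962 in replicate 2, are the comparison throughout. They were taken at full length, so their centromere ends are included.

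The samples, titled as head nuclei, came from heads of mixed adult flies of the wild-type Oregon-R strain, kept in population cages. There was no transgene and no treatment in any group. H2Av was precipitated in 2 replicates with the antibody 9751, and the labels tie 1 input library to each of them. The labels give neither the sex of the flies nor whether the replicates came from separate populations, so their spread may be technical. The read depth is unknown, the authors named no scale for the score, and sequence gaps and repeats in the scaffolds were not examined. Absence of a cluster therefore means absence of a call, and says nothing firm about how much H2Av is there. With 2 replicates, no exact test over samples can reach 0.05: the smallest two-sided p of a sign-flip test is 0.5. Differences are set against the SD of the replicates (n = 2) instead.

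H2Av is the variant of histone H2A that Drosophila uses both at active gene starts and in the response to DNA breaks, tasks that other animals split between H2A.Z and H2A.X. Genetic work in the fly also places H2Av among the factors needed to build heterochromatin, upstream of the heterochromatin protein HP1. Heterochromatin is not empty of genes: it holds many, some of them long and with introns full of transposon remnants, and some need the heterochromatic setting for normal expression.

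The share of the length inside clusters differed widely between the scaffolds. XHet, a short scaffold of X-linked heterochromatin, was covered by clusters over 52.7% of its length in replicate 1 and 41.6% in replicate 2, and 2LHet over 40.0% and 31.7%. The arms together were covered to 24.1% and 23.3%. On 3LHet the values were 21.7% and 13.6%, on 3RHet 10.1% and 4.81%, and on the Y-linked YHet 1.63% and 0.584%. XHet and 2LHet thus stood above the arms in both replicates and the other 3 scaffolds below them in both. Coverage relative to the arms was 1.99 ± 0.283 on XHet, 1.51 ± 0.208 on 2LHet, 0.741 ± 0.224 on 3LHet, 0.313 ± 0.149 on 3RHet and 0.0463 ± 0.0300 on YHet (mean ± SD of the replicate ratios, n = 2). Each of these gaps to the arms was larger than its SD.

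**Figure D1:**
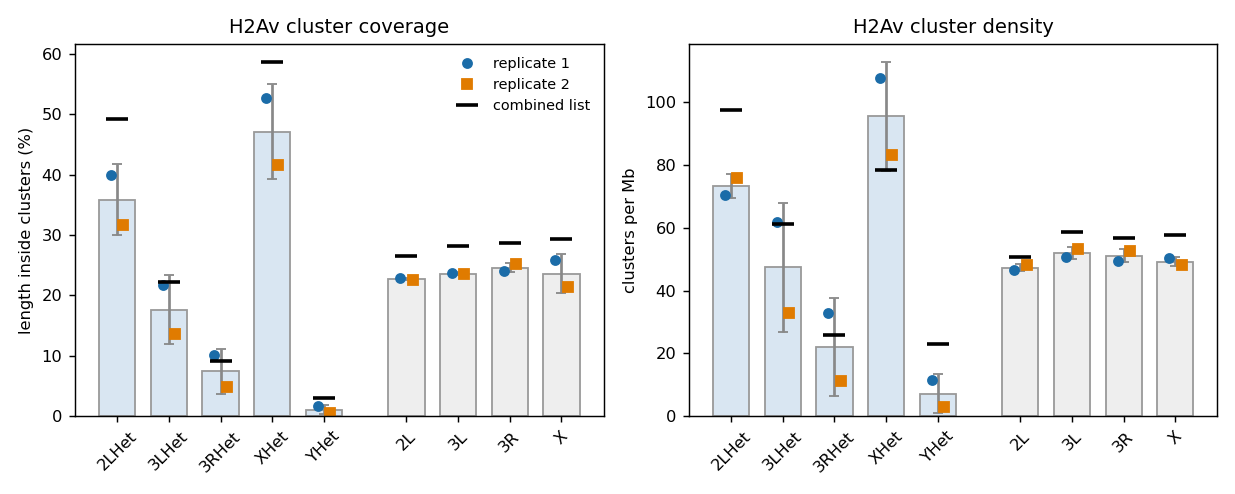
Left, share of the length inside H2Av clusters (%); right, clusters per Mb, for the 5 heterochromatin scaffolds and the 4 arms. Bars and error bars are the mean and SD of the 2 replicates, points are the replicates and dashes the combined list; XHet and 2LHet stand above all 4 arms on the left, and 3LHet, 3RHet and YHet below them.

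Short pieces of a genome vary more than long ones, so each scaffold was also set beside consecutive stretches of the arms of its own length. Mean coverage of the replicates was at least as high as on XHet in 49 of 477 such stretches (10.3%), whose median was 21.4% and whose highest value was 74.5%. For 2LHet the count was 45 of 263 (17.1%). Both scaffolds therefore lay inside the range of the arms. 3LHet was matched or exceeded by 32 of 36 arm stretches (88.9%). 3RHet, at 7.45 ± 3.72%, was exceeded by 37 of 37 (100%), the lowest of which was covered to 11.5%. YHet was matched or exceeded by 277 of 280 (98.9%), and some arm stretches of its length had no cluster at all.

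The number of clusters per length was highest on XHet and 2LHet in both replicates. XHet held 108 clusters per Mb in replicate 1 and 83.3 in replicate 2, and 2LHet 70.5 and 75.9, against 49.3 and 50.7 on the arms. 3LHet had 61.8 clusters per Mb in replicate 1 and 32.9 in replicate 2, so that it stood above the arms in one list and below them in the other. 3RHet had 33.0 and 11.1 and YHet 11.5 and 2.88. The combined list had 78.4 clusters per Mb on XHet, 97.6 on 2LHet and 61.0 on 3LHet, against 56.1 on the arms. By length, 3LHet made up 42.6% of the 5 scaffolds and 3RHet 42.0%. They held 51.8% and 23.8% of the covered length in replicate 1, and 51.6% and 18.0% in replicate 2. XHet, with 3.41% of the length, held 10.1% and 12.6% of the covered length.

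Where the clusters lay within a scaffold differed from one scaffold to the next. On XHet they crowded the stretch before the midpoint, where coverage was 80.0% in replicate 1 and 68.8% in replicate 2, against 25.3% and 14.3% after the midpoint. When each scaffold was divided into 10 parts of equal length, part 3 of XHet reached 96.0% and 84.7%, and part 9 had no cluster in either replicate or in the combined list. The combined list joined the start of XHet into 1 cluster, from 586 to 32720. From 163015 to 188472 no replicate called a cluster, and replicate 1 alone had 1 beyond it, from 188473 to 190296. Which end of the scaffold faces the centromere is not given in the files.

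On 2LHet coverage before and after the midpoint was alike, at 39.2% and 40.7% in replicate 1 and at 31.2% and 32.3% in replicate 2. At a finer scale it was patchy. Part 5 reached 87.7% and 80.9%, whereas part 3 had no cluster in any of the 3 lists. That empty part lay inside a stretch from 62469 to 119356 (56.9 kb) which neither replicate called and which divides a group of clusters near the start from the rest. The group comprised 6 clusters from 30303 to 61228 in replicate 1 and 5 from 30761 to 62468 in replicate 2.

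On 3LHet coverage was highest in 2 neighbouring parts. Parts 2 and 3, which together run from 255550 to 766647, were covered to 40.3% and 57.4% in replicate 1 and to 27.2% and 44.7% in replicate 2. They held 18.6% and 26.5% of the covered length of the scaffold in replicate 1, and 20.1% and 33.0% in replicate 2. The other 8 parts lay between 6.26% and 24.2% in replicate 1 and between 1.91% and 16.4% in replicate 2. Smaller groups lay near both ends. In the first, replicate 2 called a cluster starting at base 14 and replicate 1 one starting at base 1215. In the other, the last cluster ended at 2411317 in replicate 1 and at 2411302 in replicate 2, and the last 144 kb of the scaffold had no cluster in any list.

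Clusters of 3RHet were concentrated further. Its part 8, from 1762256 to 2014006, had a coverage of 42.9% in replicate 1 and 35.2% in replicate 2, and part 7 of 20.9% and 12.3%. In replicate 2 these parts held the centres of 27 of the 28 clusters of the scaffold, and the single cluster elsewhere ran from 2272544 to 2274053. In replicate 1 they held 35 of 83, and the remaining clusters were scattered over all 8 other parts, none of which was covered to more than 14.0%. The first 1629 kb of 3RHet had no cluster at all in replicate 2, where replicate 1 placed 27. The combined list had 11 clusters in that stretch, none of them before 876758.

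**Figure D2:**
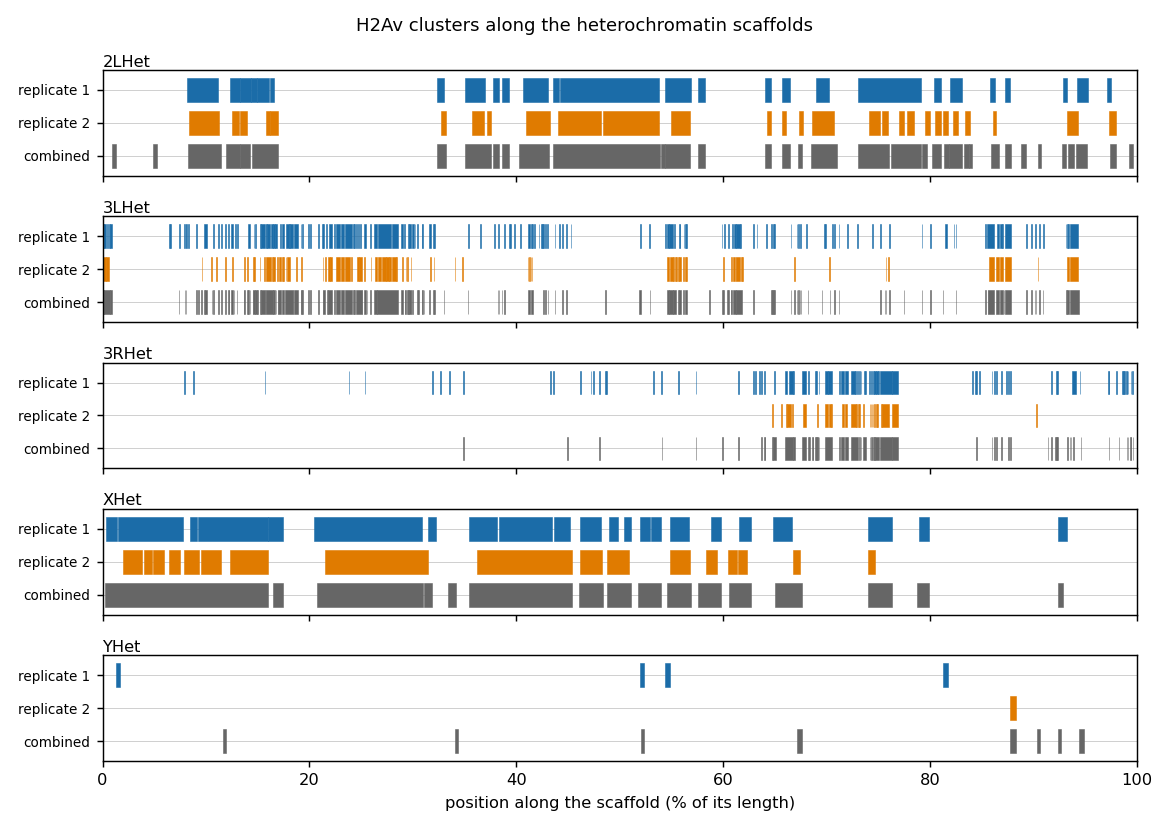
Clusters of replicate 1, replicate 2 and the combined list along each heterochromatin scaffold; the horizontal axis is the position in % of the length of that scaffold and each bar is 1 cluster. Both replicates leave 2LHet empty between 20% and 30% of its length and XHet between 80% and 90%, and on 3RHet 27 of 28 replicate 2 clusters have their centre between 60% and 80%.

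The concentration on 3RHet was measured by choosing a stretch on 1 replicate and reading it in the other. The shortest stretch that held at least 80% of the covered length in replicate 2 ran from 1704439 to 1936636, which is 232 kb or 9.22% of the scaffold. Replicate 1, which had no part in choosing it, was covered to 54.4% inside the stretch and to 5.57% outside it, and had 49.8% of its covered length inside. In the other direction, the stretch chosen on replicate 1 ran from 1633277 to 2508385, or 34.8% of the scaffold, and held 98.3% of the covered length of replicate 2. By share of length, the same measure took 46.9% of XHet, 61.6% of 2LHet and 72.0% of 3LHet when it was chosen on replicate 2. These shares do not rank the scaffolds by concentration, because a stretch cannot be shorter than the covered length it holds. Replicate 2 covered 41.6% of XHet, 31.7% of 2LHet, 13.6% of 3LHet and 4.81% of 3RHet, so no other scaffold measured could have reached 9.22%. A shortest stretch also depends on the length of a scaffold and on its number of clusters, so the much longer arms were not set beside these shares.

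Clusters on the scaffolds were narrower than those on the arms. The median width was 2087 bp in replicate 1 and 2304.5 bp in replicate 2, against 3190 bp and 3105.5 bp on the arms, a ratio of 0.698 ± 0.0621 (SD, n = 2). The scaffolds differed among themselves: the median was 2695 and 2958 bp on XHet, 2891.5 and 2234 bp on 2LHet, 2149 and 2364.5 bp on 3LHet, and 1895 and 2236 bp on 3RHet. Clusters of up to 2 kb made up 45.4% of the scaffold clusters in replicate 1 and 35.4% in replicate 2, against 28.0% of arm clusters in both. Broad clusters of over 10 kb numbered 18 on the scaffolds in replicate 1 and 14 in replicate 2. They made up 6.14% and 8.86% of the scaffold clusters, against 11.0% and 9.21% of the arm clusters. XHet had 4 and 2 of them, 2LHet 3 and 3, 3LHet 8 and 5, and 3RHet 3 and 4. Shares of covered length by scaffold therefore rest on few clusters. On XHet broad clusters held 54.6% and 45.8% of the covered length and on 2LHet 46.8% and 39.1%, against 35.7% and 30.7% on the arms. On 3LHet they held 25.3% and 21.4%. On 3RHet the replicates fell on either side of the arms, with 21.1% in replicate 1 and 42.8% in replicate 2.

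The broadest cluster of the scaffolds in replicate 1 was on 2LHet, from 163005 to 198309 (35.3 kb, score 1.80). Replicate 2 called the same ground as 2 clusters, from 162325 to 177620 (15.3 kb, score 2.29) and from 178630 to 198385 (19.8 kb, score 1.45), and the combined list as 1, from 160572 to 198750. On 3RHet the widest matched pair ran from 1892330 to 1920783 in replicate 1 (28.5 kb, score 1.36) and from 1897308 to 1913526 in replicate 2 (16.2 kb, score 1.72), within the dense stretch of that scaffold. On 3LHet a cluster from 679842 to 713363 in replicate 1 (33.5 kb, score 1.63) was matched best by one of 9.38 kb in replicate 2, from 690804 to 700181 (score 1.35). A second broad pair on 3LHet ran from 2389414 to 2411317 in replicate 1 (21.9 kb, score 1.82) and from 2390620 to 2411302 in replicate 2 (20.7 kb, score 1.89), with ends close to each other. The widest pair of XHet ran from 41649 to 63129 in replicate 1 (21.5 kb, score 1.52) and from 43949 to 64139 in replicate 2 (20.2 kb, score 1.39), so it was shifted as a whole. All 5 of these pairs were wider in replicate 1 by more than 1 kb, and the pair from 679842 on 3LHet by the most.

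Scores on the scaffolds were close to those of the arms overall. The median score was 1.10 in replicate 1 and 1.04 in replicate 2, against 0.947 and 1.02 on the arms. The mean difference, 0.0912, was about as large as its SD of 0.0887 (n = 2). XHet had medians of 1.18 and 1.22 and 2LHet of 1.50 and 1.20, both above the arms in both replicates. The medians of 3LHet were 1.04 and 0.979, and those of 3RHet 1.02 and 1.03. Set against the X arm alone, whose median was 1.12 and 1.14, the pooled scaffolds did not score higher in replicate 1 or in replicate 2.

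Score went with width less closely on the scaffolds than on the arms. On the arms narrow clusters scored low: those of up to 2 kb had a median of 0.632 in replicate 1 and 0.740 in replicate 2. On the scaffolds clusters of that width had medians of 0.961 and 0.873, a difference of 0.328 and 0.133, or 0.230 ± 0.138 (SD, n = 2). At 2 to 5 kb the medians were 1.13 and 0.987 on the scaffolds and 0.955 and 1.02 on the arms, and at 5 to 10 kb 1.31 and 1.32 on the scaffolds and 1.28 and 1.42 on the arms, so in both classes the replicates differed in which was higher. Over 10 kb the pooled scaffolds were higher in both replicates, with 1.57 over 18 clusters and 1.74 over 14, against 1.42 and 1.56. In that class 2LHet with XHet had 1.63 and 1.45, below the arms in replicate 2. The medians of 3LHet with 3RHet were 1.43, close to the arms, and 1.76. Across clusters of replicate 1, the Spearman correlation of width and score was 0.28 over the 293 on the scaffolds and 0.70 over the 4823 on the arms. In replicate 2 it was 0.53 over 158 and 0.74 over 4962. These correlations describe clusters that share a library and are not independent. Among the 100 highest-scoring clusters of the scaffolds and arms together, 23 in replicate 1 were on the scaffolds, which held 5.73% of the clusters ranked. Their median width was 1770 bp, against 6922 bp for the 77 on the arms. In replicate 2 the number was 4 of 100, where the scaffolds held 3.09% of the clusters.

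**Figure D3:**
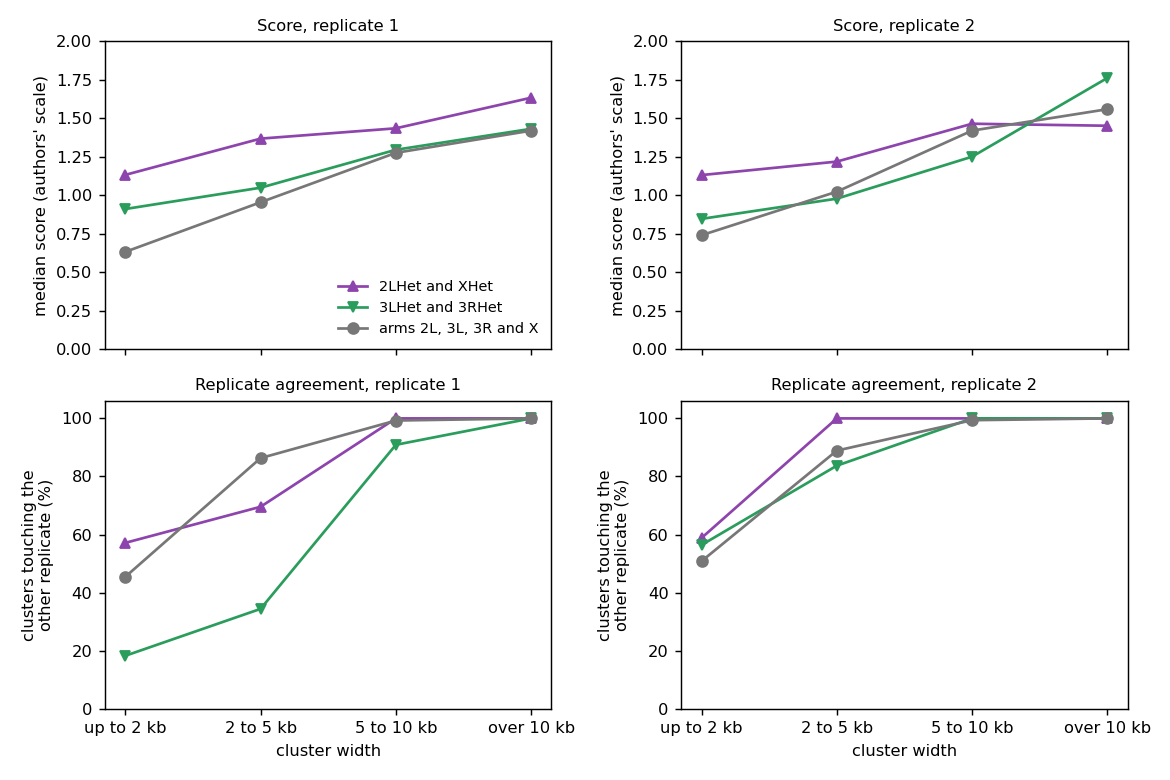
Upper panels, median score on the authors' scale; lower panels, share of clusters that touch a cluster of the other replicate (%), by width class, with replicate 1 on the left and replicate 2 on the right, for 2LHet with XHet, 3LHet with 3RHet, and the arms. Clusters of up to 2 kb score higher on the scaffolds than on the arms in both replicates, and in replicate 1 the share touching replicate 2 on 3LHet and 3RHet is 18.3% up to 2 kb and 34.4% at 2 to 5 kb, against 45.4% and 86.3% on the arms.

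The highest-scoring matched pair lay on 3LHet, from 2229895 to 2245086 in replicate 1 (score 2.16) and from 2229795 to 2244888 in replicate 2 (score 2.01), about 15 kb wide with edges within 200 bp of each other. Another on 3LHet had a score of 2.48 in replicate 1, where it ran from 1394917 to 1399556, and of 1.60 in replicate 2, where it ran from 1395655 to 1399354. Among the 5 highest pairs, 3 were on 2LHet. The first ran from 30303 to 41320 and from 30761 to 41496 (scores 2.19 and 1.82), and the next from 45538 to 48909 and from 46058 to 48755 (1.95 and 2.03). The remaining one paired a replicate 1 cluster from 160642 to 162639 (1.82) with the left-hand part of the broad 2LHet domain in replicate 2, with which it shared only its edge. The highest pair on 3RHet, from 1703249 to 1712817 and from 1704439 to 1712032, scored 2.00 and 1.83, and that on XHet, from 78183 to 88799 and from 73995 to 92608, 1.86 and 1.37.

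Several high scores belonged to clusters with no counterpart. Of the 5 highest without one, 4 were in replicate 1: YHet from 282107 to 283576 (score 3.74), 3LHet from 1659860 to 1661974 (3.59), 3RHet from 843487 to 845607 (2.82) and YHet from 180339 to 181820 (2.74). The one in replicate 2 was on 3LHet, from 1709156 to 1710673 (3.46). All 5 were between 1.47 and 2.12 kb wide. The highest score on the arms was 3.33 in replicate 1 and 2.80 in replicate 2, so 3 of these 5 clusters scored above every arm cluster of their own list, and the other replicate had no cluster there. The combined list overlapped both 3LHet ones and YHet from 180339, but neither of the other 2.

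The Y-linked scaffold had 5 clusters in the replicate lists. Replicate 1 called YHet from 4492 to 5792 (score 1.10), from 180339 to 181820 (2.74), from 188854 to 190242 (2.67) and from 282107 to 283576 (3.74). Replicate 2 called only the one from 304578 to 306603 (1.79). No base was called in both. The combined list had 8 clusters on YHet. Those from 180540 to 181540 (1.42) and from 304488 to 306618 (1.01) overlapped a replicate cluster. The other 6, from 40422 to 41422 (0.914), from 118188 to 119248 (1.04), from 233168 to 234790 (1.04), from 313520 to 314530 (0.991), from 320698 to 321702 (0.829) and from 327796 to 329256 (0.678), overlapped none. No YHet cluster in any list was wider than 2.13 kb.

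Pooled over the scaffolds, clusters were spaced more widely than on the arms, with a median gap between neighbours of 4654 bp in replicate 1 and 3396 bp in replicate 2, against 3136 bp and 2990 bp. On XHet alone was the gap shorter than on the arms in both replicates: it was 1635 bp and 1583.5 bp, 0.525 ± 0.00582 times that of the arms (SD, n = 2). The gap was 3691 and 3736 bp on 2LHet, 4973 and 3921 bp on 3LHet, and 5899.5 and 2818 bp on 3RHet. On 3RHet the shorter gap of replicate 2 belongs to the list in which nearly all clusters sit in a single stretch. Measured between cluster centres, the median distance was 9307 and 8759 bp on the pooled scaffolds and 8941 and 8382 bp on the arms, a ratio of 1.04 ± 0.00292. The pooled scaffolds thus had wider gaps and narrower clusters at a similar distance between centres. XHet did not follow this, with narrower clusters than the arms and shorter gaps. A median distance does not measure density, which in replicate 2 was 26.4 clusters per Mb on the scaffolds and 50.7 on the arms. Whether gap and width are linked was not tested. The longest stretch of the scaffolds without a cluster in either replicate was on 3RHet, from 878771 to 1089376 (211 kb), and the longest on 3LHet ran from 1158723 to 1328129 (169 kb). On YHet it ran from 5793 to 180338 (175 kb). On the arms the longest such stretch was 607 kb, but the arms are far longer, and a longest stretch tends to grow with the length searched. Stretches of over 100 kb that neither replicate called made up 53.3% of 3RHet, 50.3% of YHet and 17.8% of 3LHet, and between 25.7% and 30.7% of the arms. In replicate 2 alone they made up 87.7% of 3RHet, 87.8% of YHet and 54.0% of 3LHet, against 29.4% to 34.4% of the arms, so without replicate 1 3LHet stood above the arms and not below them. On 2LHet and XHet none exceeded 100 kb, but at 369 kb and 204 kb these scaffolds left less room for one.

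The replicates agreed less on the scaffolds than on the arms, and in 1 direction. Taking all bases inside a cluster of at least 1 replicate, 42.8% lay inside clusters of both, where on the arms 68.6% did. The unequal lengths of the lists allow at most 62.9% on the scaffolds and 96.5% on the arms. The shared 521 kb made up 48.8% of the length called in replicate 1 but 77.6% of that in replicate 2. On the arms the shares were 80.0% and 82.9%. By number, 119 of 293 scaffold clusters of replicate 1 touched a cluster of replicate 2 (40.6%), where 79.0% of the arm clusters of that list did. From the other side, 126 of 158 scaffold clusters of replicate 2 touched replicate 1 (79.7%), where 81.3% of its arm clusters did. What replicate 2 called on the scaffolds was thus shared about as often as on the arms, and the shortfall lay in clusters of replicate 1. The X arm alone leaned the same way by less: 71.4% of its replicate 1 clusters and 87.9% of its replicate 2 clusters touched the other list.

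The shortfall was not spread evenly. On XHet and 2LHet, 63.8% and 57.4% of the length called in either list was shared, and 14 of 22 and 21 of 26 replicate 1 clusters had a counterpart. On 3LHet and 3RHet the shared length was 39.5% and 33.8%, and 64 of 158 and 20 of 83 replicate 1 clusters had one. These shares are not directly comparable, because the unequal lengths of the lists set a different ceiling on each scaffold. It was 78.9% on XHet, 79.4% on 2LHet, 62.6% on 3LHet and 47.8% on 3RHet. Of the length called in replicate 2, 88.3%, 82.4%, 73.6% and 78.1% was shared, in the same order. Width classes showed where the unmatched replicate 1 clusters fell. Among replicate 1 clusters of up to 2 kb, 29 of 133 on the scaffolds were matched (21.8%), against 45.4% on the arms. At 2 to 5 kb, 48 of 116 were matched (41.4%), against 86.3%. At 5 to 10 kb it was 24 of 26, against 99.3% on the arms, and over 10 kb 18 of 18, against 100%. For replicate 2 the counts were 32 of 56 up to 2 kb (50.8% on the arms), 55 of 63 at 2 to 5 kb (88.9%), 25 of 25 at 5 to 10 kb (99.4%) and 14 of 14 over 10 kb (100%). Clusters of over 10 kb thus had a counterpart throughout, on scaffolds and arms alike. A counterpart needed to share only 1 bp, which a wide cluster meets more easily than a narrow one. When at least 50% of a cluster had to be covered, the matched share of replicate 1 scaffold clusters was 29.0% in place of 40.6%. That setting was not applied to the arms or by width class. On 3LHet and 3RHet 21 of 115 replicate 1 clusters of up to 2 kb had one, and 32 of 93 at 2 to 5 kb.

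**Figure D4:**
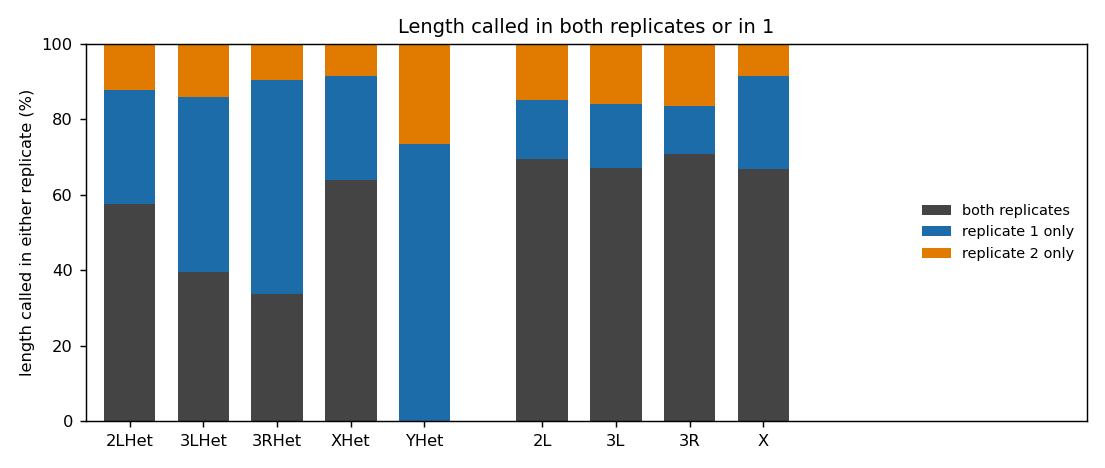
Length called in either replicate on each scaffold and arm, divided into the part called in both replicates, in replicate 1 only and in replicate 2 only (% of the length in either). The part called in replicate 1 only is larger than that called in both on 3LHet and 3RHet, and on YHet no base is called in both.

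How far unmatched clusters lay from the other list differed between the lists and the scaffolds. The 174 unmatched replicate 1 clusters of the scaffolds lay a median of 33.6 kb from the nearest replicate 2 cluster, and 102 of them (58.6%) more than 20 kb away. The 1015 unmatched ones of the arms lay a median of 3.14 kb away, and 115 of them (11.3%) more than 20 kb away. On 3RHet, where replicate 2 left the first 1629 kb empty, the median was 173 kb, and 53 of 63 lay beyond 20 kb. The median was 17.0 kb on 3LHet, whereas on XHet and 2LHet it was 1.41 kb and 3.09 kb. The 32 unmatched scaffold clusters of replicate 2 lay a median of 1.72 kb from replicate 1, against 3.24 kb for the 927 on the arms. Clusters without a counterpart scored slightly lower on the pooled scaffolds, by less than on the arms. In replicate 1 the medians were 1.06 without a counterpart and 1.17 with one, against 0.756 and 1.05 on the arms. In replicate 2 they were 1.04 and 1.05, against 0.813 and 1.12 on the arms. The scaffolds differed: in replicate 1 unmatched clusters scored lower on XHet (1.10 against 1.27) and higher on 2LHet (1.88 against 1.44, with 5 unmatched). 3LHet with 3RHet held 157 of the 174 unmatched replicate 1 clusters. There the medians were alike, at 1.03 without a counterpart and 1.03 with one. In replicate 2 unmatched clusters scored higher on 3RHet (1.17 against 0.848, with 4 unmatched) and lower on 2LHet, 3LHet and XHet. The 4 unmatched replicate 1 clusters of YHet had a median of 2.71.

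Replicate 2 called less nearly everywhere on the scaffolds. Of 20 windows of 250 kb on 3LHet and 3RHet, 19 were covered less in replicate 2, and 7 on 3RHet had clusters in replicate 1 alone. Of 20 windows of 25 kb with a cluster on 2LHet and XHet, 19 were covered less in replicate 2. On the arms the share was 57.0% of 386 windows of 250 kb and 54.8% of 2515 windows of 25 kb. The X arm took part in this: 79 of its 87 windows of 250 kb were covered less in replicate 2, against 141 of 299 on 2L, 3L and 3R. The read depth and input coverage of the libraries are not in the lists, and their part in this difference was not tested.

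Where both replicates called a cluster, its edges were placed less alike on the scaffolds. In the 99 pairs in which each cluster shared most bases with the other, starts differed by a median of 1219 bp and ends by 948 bp, against 428 bp and 428.5 bp in 3378 such pairs on the arms. Both edges fell within 500 bp of each other in 9 of the 99 pairs (9.09%), against 33.9% on the arms. Scores of these pairs correlated with a Spearman rho of 0.41 over the 99 pairs on the scaffolds and 0.77 on the arms. Widths correlated with a rho of 0.68 on the scaffolds and 0.80 on the arms. Pairs of 1 library share its enrichment and are not independent, so these values are descriptions. On the arms replicate 2 scored higher in most pairs, since replicate 1 was higher in 29.8% of them, but on the scaffolds replicate 1 was higher in 49 of 99.

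The authors' combined list, made from the same libraries and so no independent evidence, covered 58.7% of XHet, 49.2% of 2LHet, 22.3% of 3LHet, 9.08% of 3RHet and 2.97% of YHet. It took in 99.9% of the scaffold length that both replicates called. Of the length that only replicate 1 called it took in 65.6% on the scaffolds and 81.1% on the arms, and of that which only replicate 2 called 71.0% and 67.2%. On XHet and 2LHet it retained 88.5% and 93.1% of what replicate 1 alone had called, but on 3LHet and 3RHet 66.0% and 53.1%. A further 50 of its 281 scaffold clusters (17.8%) touched neither replicate list, against 16.0% on the arms. Their median width was 1147 bp and their median score 0.833, where the corresponding arm clusters had 1206 bp and 0.496. The 5 highest of them lay on 3RHet from 1727004 to 1728302 (score 3.10) and from 1728842 to 1729974 (2.73), on 2LHet from 333526 to 334530 (2.87), and on 3LHet from 1777022 to 1778028 (2.78) and from 2380908 to 2382024 (2.54).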

How the data were processed

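The values are 3 lists of enriched regions in GFF3 format: 1 per ChIP replicate, which the labels tie to an input of its own, and 1 that combines the replicates. Per the submitters' processing notes, reads were aligned with Bowtie 0.12.7, and the file headers name FlyBase release 5 as the build. How enriched regions were called, at which threshold, and how the combined list was made is not given in the sources used here. A score from the authors accompanies every deposited region with no named scale, so the score was used to rank, filter and describe, and comparing it between lists assumes a shared scale. Start and end, 1-based, are as deposited. The lists hold no read counts, so depth is unknown and no counting interval can be given.

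The lists were read with Python 3.11.15, pandas 2.3.3, numpy 2.4.6 and scipy 1.17.1. Coverage is the length inside clusters over the full length in the file headers. Clusters matched if they shared at least 1 bp, and a pair was a replicate 1 cluster with the replicate 2 cluster sharing most bases. Interval functions were tested on simulated data. Named regions were every YHet cluster; per other scaffold the widest pair, the highest-scoring pair and the longest empty stretch; and the 5 highest and 5 widest pairs, 5 highest unmatched clusters and 5 highest combined clusters in neither replicate. A few clusters outside this rule, at the edges of groups, are named because their positions were seen to matter. The scaffolds, measures and alternatives were chosen with earlier results of these data known. Parts of equal length, stretches of equal length and dense stretches describe placement and are no tests. Other heterochromatin scaffolds were not analysed here. Gene positions at hand belong to release 6 and were not converted, so genes, exons, introns and sequences at the clusters were not analysed here.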

Additional observations from a re-analysis of the deposited data

Results flagged for a closer look

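Coverage minus that of the arms had opposite signs on different scaffolds, with the same sign in both replicates of each. It was 23.4 percentage points on XHet and 12.2 on 2LHet, but -6.06 on 3LHet, -16.2 on 3RHet and -22.6 on YHet (means of 2 replicates). The difference between scaffolds was not tested.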

How the results depend on the processing

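Values were compared with the SD of the replicates, or for overlap measures the SD of the shares read from either list. For the longest empty stretch the SD of 1003 kb is itself larger than the value. The ratio of scaffold to arm coverage, 0.611, was 0.827 without 3RHet, and 0.482 to 0.740 on leaving out 1 replicate. The density ratio of 0.756 was 0.520 to 0.992 on leaving out 1 replicate. The median width ratio of 0.698 was 0.597 in the upper 50% by score, 0.853 for clusters of at least 2000 bp, 0.767 with neighbours within 1000 bp joined and 0.654 to 0.742 on leaving out 1 replicate. The difference in median score, 0.0912, turned to -0.0211 in the upper 50% by score and to -0.0533 against X alone, and was 0.0285 to 0.154 on leaving out 1 replicate. The gap ratio of 1.31 was 1.04 between centres and 1.14 to 1.48 on leaving out 1 replicate. The share of matched clusters, 40.6%, was 79.7% read from replicate 2 and 29.0% when at least 50% of a cluster had to be covered. The longest empty stretch, 211 kb, was 211 kb to 1629 kb on leaving out 1 replicate and 877 kb in the combined list. For these shifts the cause was not tested, although a width filter removes narrow clusters by construction. Under all other settings tried for the pooled scaffolds, values stayed within 1 SD in the same direction. This is a weak yardstick. A mean of 2 replicates stays within 1 SD by construction when 1 is left out. For the overlap measures the SD was 20.4 percentage points for shared length and 27.7 for matched clusters. Each scaffold kept its side of the arms in each replicate alone, in the combined list and in the upper 50% by score, alternatives added after seeing the data. Among these ratios, 2LHet moved by more than 1 SD, to 1.74 in the combined list and 1.95 in the upper 50%, as did XHet, to 2.43 in the upper 50%, and YHet, to 0.105 in the combined list. The dense stretch of 3RHet and its alternatives were also added then: with 90% in place of 80%, it held 55.6% of the covered length of replicate 1. No paired analysis was possible because no list holds values for an input library. Unknown depth limits what narrow clusters can show.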
